A study of Caenorhabditis elegans with 11 samples.

Results

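The 6 vitellogenin genes of Caenorhabditis elegans, vit-1 to vit-6, encode its yolk proteins. They were found by gene name in the deposited table and are 6 of the 46926 genes counted there; all 6 passed the filter on low counts, which left 16013 genes for testing. RNA came from whole worms at L4, the last larval stage, and 11 libraries were sequenced. The groups were atfs-1(null), which lacks the transcription factor that drives the mitochondrial unfolded protein response (3 libraries), the atfs-1(null) nhr-180(cmh19) double mutant (3 libraries), nhr-180(cmh19), mutant for a nuclear hormone receptor (2 libraries, numbered 2 and 3), and wildtype, named N2 in the library names (3 libraries). Every group was fed HT115 bacteria and carried no other allele or treatment per the labels. The sources used here give neither the lesion of cmh19 nor the allele called null. The replicates are called biological in the labels, which name no shared day or batch, so the p-values measure the spread between these samples.

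Vitellogenins are large lipid-carrying proteins. In hermaphrodites they are made by the intestine, beginning around the passage from the last larval stage to the adult, secreted into the body cavity and taken up by growing oocytes through the receptor RME-2. The genes vit-1 to vit-5 encode the larger yolk proteins, with vit-3, vit-4 and vit-5 nearly alike, and vit-6 encodes a precursor that is cut into a pair of smaller yolk proteins.

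Of the members, 5 lie on the X chromosome in the WBcel235 annotation, whose start and end matched the deposited table for all 6 members. The pair vit-4 (X:3558769-3563965) and vit-3 (X:3567355-3572549) sit next to each other on the minus strand with 3389 bp and no gene between them. On the plus strand, vit-5 (X:3403471-3408603) lies 150165 bp from vit-4 with 42 genes between, and vit-2 (X:5101042-5106169) and vit-1 (X:7727889-7733168) lie farther along. The remaining gene, vit-6, is on the plus strand of chromosome IV (IV:8261157-8266459) and has 2 annotated transcripts. The coding sequences of vit-3, vit-4 and vit-5 were all 4809 bases long and their exon 3 was 3038 bases long in each, against coding lengths of 4848 bases for vit-1 and 4839 for vit-2. No source used here says whether reads that match several of these copies were counted, or for which copy, and the split among vit-3, vit-4 and vit-5 is uncertain. Of the genes that overlap a member on the other strand, C42D8.9 had at most 24 counts in any library, F59D8.3 at most 1 and T27A10.8 none.

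Depth was alike over the libraries, from 20860822 to 22921602 counts on genes and from 19208 to 19775 genes with a count. The targeted genes were low in the genotypes named for them, though atfs-1 was uneven within atfs-1(null). The atfs-1 gene had 10 to 99 counts in atfs-1(null) libraries, with 10 in replicate 1 and 99 in replicate 2. It had 59 to 76 in double mutant libraries, 902 to 1061 in nhr-180(cmh19) libraries and 1085 to 1167 in wildtype libraries. The nhr-180 gene had 9 to 13 counts in double mutant libraries and 6 to 9 in nhr-180(cmh19) libraries, against 98 to 121 in atfs-1(null) libraries and 65 to 87 in wildtype libraries. Among the marker lists, atfs-1(null) replicate 1 stood apart from the other atfs-1(null) libraries and wildtype replicate 2 from the other wildtype libraries, and results were also computed without both.

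Yolk gene transcripts were low in the atfs-1(null) larvae, while no difference from wildtype was detected in the double mutant or in nhr-180(cmh19). The 6 genes together took 0.0538% ± 0.0248 of all counts in atfs-1(null) libraries, 0.726% ± 0.268 in double mutant libraries, 0.853% ± 0.327 in nhr-180(cmh19) libraries and 0.529% ± 0.199 in wildtype libraries (SD; n = 3, 3, 2 and 3). Summed over the 6 genes, atfs-1(null) replicates 1 to 3 had 773, 301 and 488 CPM (counts scaled to the normalized library size), and double mutant replicates 1 to 3 had 5916, 9771 and 5403 CPM. The nhr-180(cmh19) replicates 2 and 3 had 10960.2 and 6381 CPM, and wildtype replicates 1 to 3 had 7679, 3364 and 5656 CPM. Every atfs-1(null) library lay below every other library, while the libraries of the other genotypes overlapped. In bulk RNA, fewer cells making a transcript and less of it per cell cannot be told apart, and in whole larvae neither can a shift in how far the animals had developed.

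**Figure D1:**
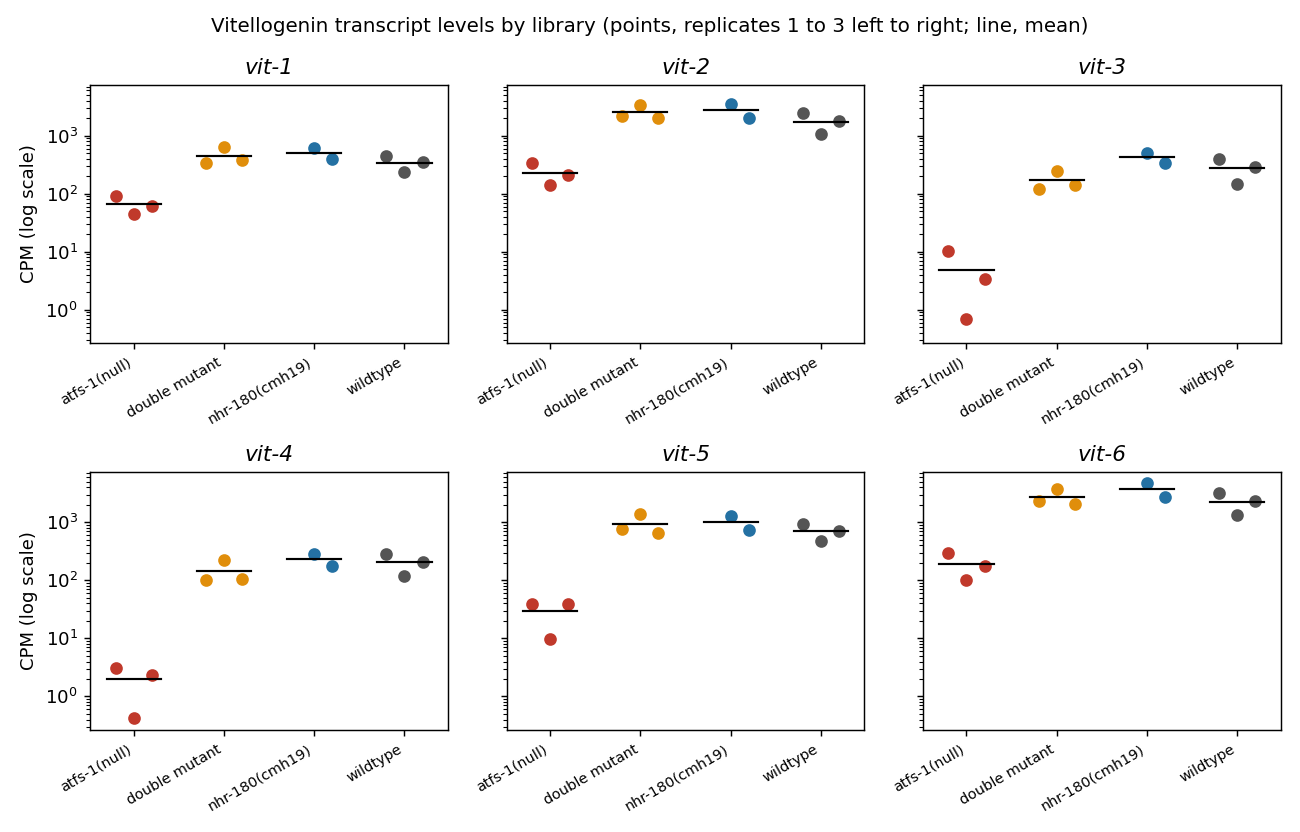
Level of each vitellogenin gene in each library, in CPM on a log axis; points are libraries and lines are genotype means. For each of the 6 genes the 3 atfs-1(null) points lie below all points of the double mutant, nhr-180(cmh19) and wildtype, and vit-4 in atfs-1(null) falls between 0.424 and 3.15 CPM.

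In atfs-1(null) larvae compared with wildtype, all 6 vitellogenin genes were lower, and vit-3, vit-4 and vit-5 by more than vit-1, vit-2 and vit-6. Every gene was called in edgeR's quasi-likelihood test with Benjamini-Hochberg adjustment over all genes tested (adjusted p under 0.05), where 6.77% of all genes tested were called lower. For each gene the groups did not overlap, as was so of 15.3% of all genes tested in that direction. The median log2 fold change of the 6 genes was -4.09, against 0.06 for all genes tested.

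The vit-4 transcript, one of the near-identical trio, had 3.15, 0.424 and 2.34 CPM in atfs-1(null) libraries, against 286, 121 and 208 CPM in wildtype libraries. That is 1.97 ± 1.40 CPM in atfs-1(null) and 205 ± 82.4 CPM in wildtype (SD, n = 3 each), a log2 fold change of -6.70 (SE 0.67, adjusted p = 0.000114). By size of fall it ranked 2 among all 16013 genes tested. Its neighbour vit-3 had 10.1, 0.679 and 3.43 CPM in atfs-1(null) libraries, against 393, 146 and 287 CPM in wildtype libraries, a log2 fold change of -5.86 (SE 0.80, adjusted p = 0.000843). Replicate 2 was the lowest atfs-1(null) library for both neighbours, with 10 counts of vit-4 and 16 of vit-3. The third of the trio, vit-5, had 38.6, 9.92 and 39.5 CPM in atfs-1(null) libraries, against 939.5, 474 and 721 CPM in wildtype libraries, and a log2 fold change of -4.60 (SE 0.55, adjusted p = 0.000369). Because reads could be split among these copies, their counts were also summed into 1 feature, which fell by 5.05 on the log2 scale (SE 0.60, adjusted p = 0.000337).

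The most abundant members in CPM, vit-2 and vit-6, had smaller estimated falls. The vit-6 transcript, from the one member outside the X chromosome, had 293, 102 and 175 CPM in atfs-1(null) libraries, against 3198, 1338 and 2324 CPM in wildtype libraries, a log2 fold change of -3.59 (SE 0.46, adjusted p = 0.00053). For vit-2, the values were 336, 143 and 207 CPM in atfs-1(null) libraries and 2423, 1050.2 and 1772 CPM in wildtype libraries, with a log2 fold change of -2.94 (SE 0.41, adjusted p = 0.000924). Both genes kept over 100 CPM in every atfs-1(null) library. The smallest change was that of vit-1, with 91.8, 44.8 and 60.3 CPM in atfs-1(null) libraries, against 439.8, 234 and 344 CPM in wildtype libraries, a log2 fold change of -2.37 (SE 0.35, adjusted p = 0.00137). For every member atfs-1(null) replicate 2 was the lowest atfs-1(null) library. All 6 calls held under each of the 20 settings in which the 6 genes were fitted separately, and all 4 features were called with the trio summed.

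Adding the nhr-180 mutation to atfs-1(null) went with higher levels of all 6 genes. In the double mutant compared with atfs-1(null), 6 of 6 were called higher, where 0.312% of all genes tested were called higher, and for all 6 the groups did not overlap, as was so of 6.03% of all genes tested. Only 50 genes were called higher in this comparison at all, and the vitellogenin genes were 6 of them. The number of genes called in either direction, 71 (0.443% of all genes tested), depended on single libraries. With atfs-1(null) replicate 1 left out it was 812, and without each of the following it was 27 (atfs-1(null) replicate 2), 31 (double mutant replicate 2), 41 (wildtype replicate 3), 42 (double mutant replicate 1), 44 (atfs-1(null) replicate 3) and 47 (either nhr-180(cmh19) replicate).

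In double mutant replicates 1 to 3, vit-4 had 101, 228 and 107 CPM, against the 3.15, 0.424 and 2.34 CPM of atfs-1(null) libraries, a log2 fold change of 6.20 (SE 0.65, adjusted p = 0.00228). It was followed by vit-3, with 119.4, 249.6 and 139 CPM in double mutant libraries, against 10.1, 0.679 and 3.43 CPM in atfs-1(null) libraries, a log2 fold change of 5.16 (SE 0.78, adjusted p = 0.0163). For both neighbours the lowest double mutant library lay well above the highest atfs-1(null) library. The call of vit-3 was the only one of the 6 to be lost: its adjusted p was 0.0794 without atfs-1(null) replicate 3, 0.0543 without double mutant replicate 2 and 0.102 when only the compared groups entered the fit. The trio's vit-5 had 779, 1394 and 656 CPM in double mutant libraries, against 38.6, 9.92 and 39.5 CPM in atfs-1(null) libraries, a log2 fold change of 5.01 (SE 0.56, adjusted p = 0.00272).

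The order of the changes was the same at the low end. For vit-6 the double mutant libraries had 2364, 3835 and 2109 CPM, against 293, 102 and 175 CPM in atfs-1(null) libraries, a log2 fold change of 3.86 (SE 0.46, adjusted p = 0.00397). The vit-2 transcript had 2209, 3432 and 2010.2 CPM in double mutant libraries, against 336, 143 and 207 CPM in atfs-1(null) libraries, a log2 fold change of 3.48 (SE 0.42, adjusted p = 0.00397). For vit-1 the values were 344, 633 and 382 CPM in double mutant libraries and 91.8, 44.8 and 60.3 CPM in atfs-1(null) libraries, a log2 fold change of 2.79 (SE 0.36, adjusted p = 0.00621). Double mutant replicate 2 was the highest double mutant library for every member.

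No difference between the double mutant and wildtype was detected for any of the 6 genes. None was called by edgeR's quasi-likelihood test or by DESeq2, and 0 of 6 had an unadjusted p under 0.05, where 16.3% of all genes tested were called in one direction or the other. The log2 fold changes were 0.42 for vit-1 (95% interval -0.32 to 1.15), 0.54 for vit-2 (-0.29 to 1.38), -0.70 for vit-3 (-2.12 to 0.71), -0.50 for vit-4 (-1.61 to 0.62), 0.41 for vit-5 (-0.64 to 1.45) and 0.28 for vit-6 (-0.63 to 1.19). The intervals leave room for a level of vit-3 between 0.231 and 1.64 times that of wildtype, and for vit-1 between 0.803 and 2.22 times. Without double mutant replicate 2 the signs of vit-5 and vit-6 turned, to -0.01 and -0.05.

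The nhr-180 mutation alone gave the highest summed level, but its 2 libraries spread widely and no member was called against wildtype. In nhr-180(cmh19) replicates 2 and 3, vit-6 had 4697 and 2715 CPM, against 3198, 1338 and 2324 CPM in wildtype libraries, and vit-2 had 3564 and 2007 CPM, against 2423, 1050.2 and 1772 CPM. For both genes nhr-180(cmh19) replicate 3 lay within the wildtype range, and so did those of vit-1 (388 CPM), vit-3 (341 CPM), vit-4 (177 CPM) and vit-5 (753 CPM). The log2 fold changes ran from 0.17 for vit-4 to 0.70 for vit-6, with adjusted p from 0.409 to 0.906 in edgeR's quasi-likelihood test, where 2.24% of all genes tested were called; 0 of 6 had an unadjusted p under 0.05 and DESeq2 called none. The 95% interval of vit-6 reached from 0.808 to 3.25 times the wildtype level. The sign for vit-4 turned without nhr-180(cmh19) replicate 2 (-0.21) and without wildtype replicate 2 (-0.10).

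Set against nhr-180(cmh19), the double mutant asks what loss of atfs-1 does where nhr-180 is already mutant. None of the 6 genes was called, with adjusted p from 0.216 to 0.905 in edgeR's quasi-likelihood test, 0 of 6 with an unadjusted p under 0.05 and none called by DESeq2, where 18.5% of all genes tested were called. Log2 fold changes ran from -1.33 for vit-3 to -0.11 for vit-5. Only vit-3 had groups that did not overlap, with 119.4, 249.6 and 139 CPM in double mutant libraries and 508 and 341 CPM in nhr-180(cmh19) libraries, as 26.7% of all genes tested did in that direction. Its interval was wide, from 0.136 to 1.17 times the nhr-180(cmh19) level, and it was called when only these groups entered the fit (adjusted p = 0.0215) and when both libraries that stood apart were left out (adjusted p = 0.0394).

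Whether the nhr-180 mutation acted differently by atfs-1 background was asked with an interaction, its log2 effect in worms lacking atfs-1 minus its log2 effect in worms carrying atfs-1. The interaction was 6.03 for vit-4 (SE 0.88, adjusted p = 0.00739), 4.49 for vit-5 (SE 0.77, adjusted p = 0.0204) and 3.17 for vit-6 (SE 0.65, adjusted p = 0.0454) by edgeR's quasi-likelihood test, so 3 of 6 genes were called. The background was 0.275% of all genes tested called in that direction and 1.14% in either. The other genes missed the threshold, with 2.81 for vit-2 (adjusted p = 0.0511), 4.53 for vit-3 (adjusted p = 0.0797) and 2.21 for vit-1 (adjusted p = 0.0797). All 6 interactions were positive in every setting, and all 6 had an unadjusted p under 0.05. The count of calls turned on single libraries. It was 6 without atfs-1(null) replicate 1, 4 without wildtype replicate 2, 1 without wildtype replicate 3 and 0 without either nhr-180(cmh19) replicate, and 2 without any other single library. Of the called genes, vit-6 kept its call only without atfs-1(null) replicate 1 or wildtype replicate 2, and vit-5 lost its own without wildtype replicate 3 (adjusted p = 0.0646) or either nhr-180(cmh19) replicate (0.1 and 0.165). Leaving out an nhr-180(cmh19) replicate leaves that group with 1 library, assumed to vary like the others. The adjusted p of vit-4 was 0.0625 without nhr-180(cmh19) replicate 2 and 0.0992 without replicate 3.

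**Figure D2:**
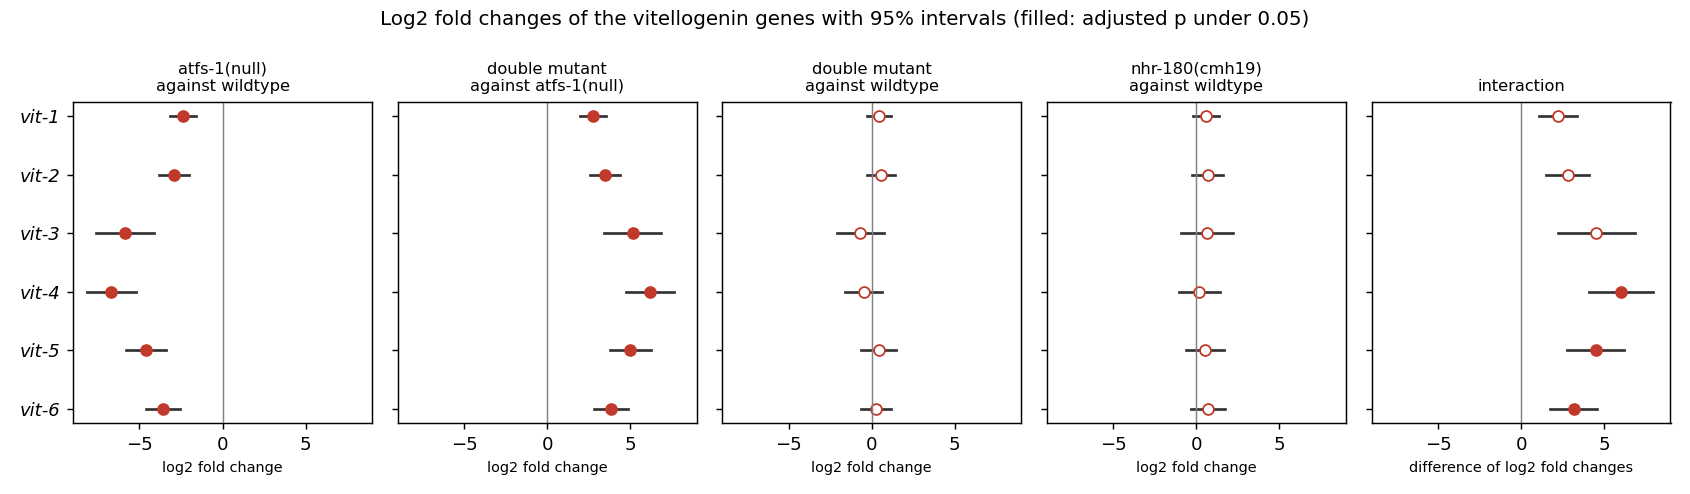
Log2 fold change of each vitellogenin gene in 4 comparisons between genotypes, and the interaction as a difference of log2 fold changes; points are estimates, bars are 95% intervals, and filled points have an adjusted p under 0.05. All 6 points are filled in the comparisons of atfs-1(null) with wildtype and of the double mutant with atfs-1(null), none in the comparisons of the double mutant or nhr-180(cmh19) with wildtype, and 3 in the interaction.

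The summed level was also compared between the 6 libraries lacking atfs-1 and the 5 carrying it. The arm lacking atfs-1 pools atfs-1(null) with the double mutant, whose summed levels did not overlap. The test therefore cannot show what loss of atfs-1 does in either nhr-180 state. The mean log2 summed level was lower by 1.81 in libraries lacking atfs-1, with p = 0.128 in an exact two-sided permutation test over 462 assignments. Permuting only among libraries of the same nhr-180 state gave p = 0.055 for the same difference, in an exact test over 200 assignments. The double mutant libraries, at 5403 to 9771 CPM, lay among the nhr-180(cmh19) and wildtype libraries, which reached from 3364 to 10960.2 CPM. In none of the 17 alternatives did the test pass its threshold. With 3 libraries against 3, the exact permutation test on the summed level gave p = 0.1, the smallest it can give, both for atfs-1(null) against wildtype (-3.44 on the log2 scale) and, at 3.81, for the double mutant relative to atfs-1(null).

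The make-up of the yolk transcript pool is given as shares, whose tests could not pass the threshold at this sample size. Per length, in TPM, the authors' length-normalized level, vit-2 led the pool in atfs-1(null) at 45.0% ± 2.70 of the 6 genes' TPM, ahead of vit-6 at 35.5% ± 1.94 (SD, n = 3). In wildtype the order of this pair was the other way round, with vit-6 at 40.2% ± 0.943 and vit-2 at 31.7% ± 0.175, followed by vit-5 at 13.3% ± 0.971, vit-1 at 6.13% ± 0.619, vit-3 at 4.91% ± 0.435 and vit-4 at 3.70% ± 0.0640. Each of the 3 atfs-1(null) libraries had a larger share of vit-2 than of vit-6, and each of the other 8 libraries the reverse.

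The share of vit-1, the member with the smallest fold change, was 12.8% ± 1.60 in atfs-1(null), against 6.13% ± 0.619 in wildtype, and vit-1 stood above vit-5 (5.61% ± 2.49) in the atfs-1(null) pool. The shares of vit-3 and vit-4 were 0.756% ± 0.551 and 0.347% ± 0.180 in atfs-1(null), 2.41% ± 0.320 and 2.02% ± 0.319 in the double mutant, 5.05% ± 0.506 and 2.71% ± 0.141 in nhr-180(cmh19), and 4.91% ± 0.435 and 3.70% ± 0.0640 in wildtype. For both genes every double mutant library lay between the atfs-1(null) and the wildtype libraries, while their shares in nhr-180(cmh19) and wildtype overlapped only for vit-3. The share of vit-2 was 36.9% ± 1.26 in the double mutant, against 31.7% ± 0.175 in wildtype, with no overlap. Exact two-sided permutation tests of the 6 shares, each of atfs-1(null) and the double mutant set against wildtype, cannot go below p = 0.1 with 3 libraries against 3. That value was reached by all 6 shares in atfs-1(null) and by those of vit-2, vit-3 and vit-4 in the double mutant, and each was 0.133 after adjustment over the 12 comparisons. In the same exact tests the double mutant's shares of vit-1 (p = 0.7, adjusted 0.764), vit-5 (p = 0.8, adjusted 0.8) and vit-6 (p = 0.2, adjusted 0.24) overlapped those of wildtype.

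**Figure D3:**
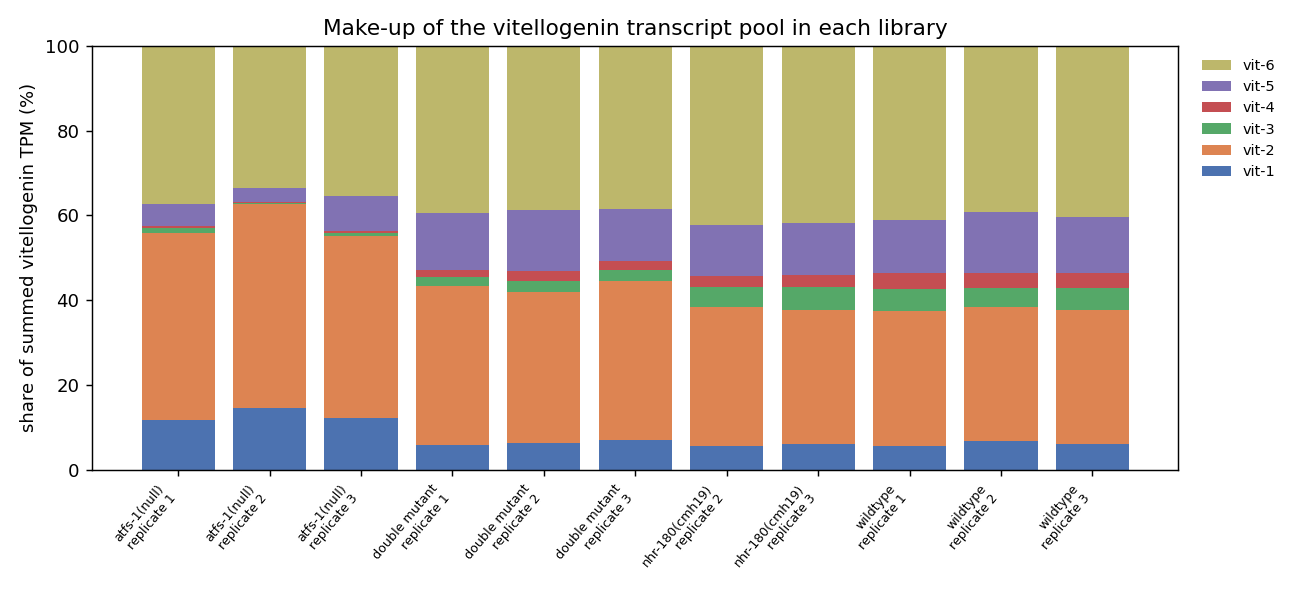
Share of each vitellogenin gene in the summed TPM of the 6 genes, in percent, as stacked bars for each of the 11 libraries. The vit-2 and vit-1 segments are tallest in the 3 atfs-1(null) bars, where the vit-3 and vit-4 segments nearly vanish; the 3 wildtype bars are nearly alike although their summed levels differ.

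Ranked by TPM among the genes of each library, vit-6 stood between 2052 and 4977 in atfs-1(null) libraries, and between 181 and 552 in the libraries of the double mutant, nhr-180(cmh19) and wildtype. The rank of vit-4 lay between 14819 and 17647 in atfs-1(null) libraries and between 1957 and 5215 in the others.

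Within a genotype the 6 genes moved together from library to library. In 10 of the 11 libraries all 6 deviated from their genotype mean to the same side. The exception was atfs-1(null) replicate 3, with 4 above and 2 below. Deviations within a genotype cancel out, and those of the nhr-180(cmh19) libraries mirror each other, so these are not 11 separate observations. The largest departures to the low side for all 6 were atfs-1(null) replicate 2 (median deviation -1.04 on the log2 scale) and wildtype replicate 2 (-0.66). To the high side, atfs-1(null) replicate 1 (0.70), double mutant replicate 2 (0.585) and wildtype replicate 1 (0.56) led. The Pearson correlation of log2 CPM over the 11 libraries was between 0.964 and 0.998 for the 15 pairs of members, and between 0.845 and 0.994 once genotype means were taken out; these are descriptions over libraries that share depth and animals. The spread within wildtype, with CVs from 30.3% for vit-1 to 45.0% for vit-3, exceeded the common biological coefficient of variation of 21.7% over all genes.

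Of 15 genes that carry yolk out of the intestine, into oocytes and through endocytic recycling, 0 were called in atfs-1(null) against wildtype (2 lower and 2 higher at an unadjusted p under 0.05), where 6.77% of all genes tested were called lower and 7.54% higher. Likewise 0 were called in the double mutant set against atfs-1(null) (1 lower and 1 higher at an unadjusted p under 0.05), where the background was 0.443% in either direction; their medians were -0.08 and 0.10 log2. In DESeq2 and the other settings at most 1 was called in each direction in either comparison. The oocyte yolk receptor gene rme-2 was higher in the double mutant, at 190.4 ± 39.6 CPM, than in wildtype, at 46.7 ± 16.6 CPM (SD, n = 3 each; log2 fold change 2.03, SE 0.38, adjusted p = 0.00584). In atfs-1(null) it averaged 88.2 ± 45.2 CPM (adjusted p = 0.119 against wildtype, and 0.0279 without atfs-1(null) replicate 2), and the double mutant against atfs-1(null) gave an adjusted p of 0.353, or 0.0183 without atfs-1(null) replicate 1. The gene dsc-4, which encodes a lipid transfer protein needed for yolk secretion, averaged 165 ± 12.2 CPM in atfs-1(null) and 174 ± 15.8 CPM in wildtype (adjusted p = 0.713). Double mutant larvae had a lower dsc-4 level, at 128 ± 6.01 CPM, against 174 ± 15.8 CPM in wildtype (log2 fold change -0.44, adjusted p = 0.0367), a call lost without any single double mutant or wildtype library (adjusted p 0.0517 to 0.125).

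Of 20 regulators of vitellogenin transcription, 2 were called lower and 1 higher in atfs-1(null) against wildtype, where 6.77% and 7.54% of all genes tested were called in those directions, and their median log2 fold change was -0.07. The homeobox gene ceh-60, an activator of vitellogenin genes in the intestine, averaged 11.95 ± 0.991 CPM in atfs-1(null) and 20.1 ± 3.00 CPM in wildtype (SD, n = 3 each; log2 fold change -0.75, SE 0.16, adjusted p = 0.0124; 0.0523 without wildtype replicate 1). It was also lower in the double mutant, at 14.96 ± 2.23 CPM, than in nhr-180(cmh19), at 24.3 ± 1.34 CPM (n = 3 and 2; log2 fold change -0.70, adjusted p = 0.0225), a call lost without double mutant replicate 3 (0.0658) or either nhr-180(cmh19) replicate (0.129 and 0.112). Its partner unc-62 had a log2 fold change of -0.02 (adjusted p = 0.961). The zinc finger transcription factor gene pqm-1, placed on the list as a regulator of intestinal metabolism, averaged 60.7 ± 10.3 CPM in atfs-1(null) and 28.3 ± 1.95 CPM in wildtype (log2 fold change 1.10, SE 0.14, adjusted p = 0.000528). The 3 atfs-1(null) libraries reached from 53.3 to 72.4 CPM and the 3 wildtype libraries from 26.1 to 29.9 CPM.

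In nhr-180(cmh19), pqm-1 averaged 47.2 ± 3.62 CPM (n = 2), with a log2 fold change over wildtype of 0.74 (adjusted p = 0.0349; lost without any single nhr-180(cmh19) or wildtype library, 0.0723 to 0.272, and without any single double mutant library, 0.0551 to 0.0692). Its double mutant level was 41.8 ± 0.815 CPM (log2 fold change over wildtype 0.56, adjusted p = 0.0199; 0.0609 to 0.0736 without any single double mutant library or wildtype replicate 1 or 3). In each of the 3 mutant genotypes pqm-1 lay above the wildtype libraries, with the highest mean in atfs-1(null). Whether pqm-1 has a part in the vitellogenin levels was not tested. The pqm-1 interaction was -1.28 (adjusted p = 0.0158, where 0.862% of all genes tested were called in that direction), a call lost without double mutant replicate 1 or 2, either nhr-180(cmh19) replicate or wildtype replicate 3 (adjusted p 0.0502 to 0.101).

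The gene mab-3, which represses vitellogenin genes in males, was lower in atfs-1(null), at 8.10 ± 1.34 CPM, than in wildtype, at 16.01 ± 4.30 CPM (log2 fold change -0.98, adjusted p = 0.0172; 0.056 without atfs-1(null) replicate 3, 0.0622 without wildtype replicate 2, 0.0605 without wildtype replicate 3, 0.0578 with the compared groups alone and 0.101 with both libraries that stood apart left out). Its means were similar in the other mutants, and whether mab-3 has a part in the vitellogenin levels was not tested. In the double mutant mab-3 averaged 9.31 ± 1.88 CPM (adjusted p = 0.0407 against wildtype). That call was lost without any single double mutant library (adjusted p 0.0687 to 0.143) and without wildtype replicate 2 (0.15) or 3 (0.117). It was also lost without atfs-1(null) replicate 3 (0.0515) and with the compared groups alone (0.054). In nhr-180(cmh19) mab-3 averaged 8.16 ± 0.0394 CPM (n = 2, adjusted p = 0.0896). For elt-2, the intestinal GATA factor, the log2 fold change in atfs-1(null) over wildtype was -0.37 (adjusted p = 0.0678, and 0.0239 by DESeq2's Wald test).

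Between the double mutant and wildtype, 2 of the 20 regulators were called lower, mab-3 and elt-2, where 6.27% of all genes tested were called lower. Another 4 were called higher, against 10.1% of all genes tested, among them pqm-1 and the developmental timing genes lin-41 (log2 fold change 1.40, adjusted p = 0.0279) and lin-28 (0.49, adjusted p = 0.035). Over the settings the counts ran from 0 to 3 lower and from 0 to 4 higher, with 0 in either direction without double mutant replicate 3 or wildtype replicate 3. In the double mutant set against atfs-1(null), 0 of the 20 were called by edgeR's quasi-likelihood test (1 lower at an unadjusted p under 0.05, none higher). Only 0.443% of all genes tested were called there in either direction. At most 1 of the 20 was called in any other setting, DESeq2 included.

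Genes of the intestine, where vitellogenins are made, had smaller fold changes. Of 13 intestine markers, 2 were lower in atfs-1(null) than in wildtype, where 6.77% of all genes tested were called lower: the intestinal actin gene act-5 (log2 fold change -0.62, adjusted p = 0.03) and the acid phosphatase gene pho-1 (-0.59, adjusted p = 0.03). Leaving out any single wildtype library ended both calls (adjusted p 0.0695 to 0.103), as did leaving out atfs-1(null) replicate 3 (0.0621) or double mutant replicate 1 (0.0507) for pho-1. DESeq2 called 4 markers lower, the fit of the compared groups alone called none, and limma on TPM called 0 lower and 1 higher. Between the double mutant and wildtype, 6.27% of all genes tested were called lower and 10.1% higher. Of the 13 markers, 2 were lower there, act-5 (-0.55, adjusted p = 0.0423) and elt-2 (-0.42, adjusted p = 0.0407), and none higher. That count was 7 with the compared groups alone, 6 without atfs-1(null) replicate 1, 1 without atfs-1(null) replicate 3, and 0 without any single double mutant, nhr-180(cmh19) or wildtype library; on TPM it was 0, with 2 higher. The list's median log2 fold change was -0.34, against -4.09 for the vitellogenin genes, and its summed level was 8426 to 9121 CPM in atfs-1(null) libraries, 8036 to 9862 in double mutant libraries, 8991 to 9199.97 in nhr-180(cmh19) libraries and 8874 to 9485 in wildtype libraries. No intestine marker was at 0 in any library. In the double mutant set against atfs-1(null) none was called in any of the settings, and 0 of 13 had an unadjusted p under 0.05 in edgeR's quasi-likelihood test. That comparison called only 0.443% of all genes tested, in either direction.

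Of 7 collagens of the adult cuticle, another set of genes switched on at the passage to the adult, 4 were lower in atfs-1(null) than in wildtype, where 6.77% of all genes tested were called lower; the median log2 fold change of the 7 was -4. The adult collagen gene col-19 averaged 27.7 ± 27.2 CPM in atfs-1(null) and 497 ± 163 CPM in wildtype (log2 fold change -4.16, adjusted p = 0.00183). The others were col-7 (-4.003), col-62 (-4.21) and col-119 (-4.22). The summed level of the 7 was 2197, 272 and 360 CPM in atfs-1(null) libraries, 2412, 2414 and 1327 CPM in double mutant libraries, 4807 and 5415 CPM in nhr-180(cmh19) libraries, and 3671, 3182 and 3421 CPM in wildtype libraries, so atfs-1(null) replicate 1 lay within the double mutant range. For bli-2, which was not called, atfs-1(null) reached from 68.7 to 719 CPM and wildtype from 468 to 704 CPM. Without atfs-1(null) replicate 1, all 7 were called lower with a median of -5.25. In the double mutant set against atfs-1(null), col-119 (4.07, adjusted p = 0.0164) and col-19 (3.56, adjusted p = 0.0414) were higher, where 0.312% of all genes tested were called higher; the number called was 7 without atfs-1(null) replicate 1, 0 without atfs-1(null) replicate 2 or double mutant replicate 2, and 1 without any other single library except wildtype replicate 2. DESeq2 called 4.

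In the double mutant against wildtype, 0 of the 7 collagens and 0 of the 6 vitellogenin genes were called, where 16.3% of all genes tested were called. Their medians were -0.87 and 0.34 log2, and 0 of either list had an unadjusted p under 0.05. Relative to the wildtype mean, the collagen median lay between -1.48 and -0.48 log2 in double mutant libraries and between 1.02 and 1.21 in nhr-180(cmh19) libraries, where the vitellogenin median lay between -0.04 and 0.89 and between 0.26 and 0.96. In the double mutant against nhr-180(cmh19), 2 of the 7 collagens and 0 of the 6 vitellogenin genes were called lower, as were 8.21% of all genes tested; without any single nhr-180(cmh19) library, or without double mutant replicate 1 or 3, no collagen was called, and without atfs-1(null) replicate 1, 5 were. The difference between the lists was not tested. Of 8 markers of the hypodermis, the tissue that makes the cuticle, 0 were called in atfs-1(null) against wildtype. Of all genes tested, 6.77% were called lower and 7.54% higher there. At an unadjusted p under 0.05, 1 marker was lower, and DESeq2 called 1. The cuticle collagen genes dpy-4 and dpy-13 were lower in the double mutant than in wildtype (-0.87 and -0.74), where 6.27% of all genes tested were called lower. Both were also lower than in nhr-180(cmh19) (-1.55 and -1.32), where 8.21% were called lower. The double mutant calls against wildtype were both lost without double mutant replicate 2 or 3 or wildtype replicate 1 or 3. The summed level of the 8 hypodermis markers was 5252 to 7085 CPM in atfs-1(null) libraries, 3994 to 6500 CPM in double mutant libraries, 9319 to 12155 CPM in nhr-180(cmh19) libraries and 7655 to 8318 CPM in wildtype libraries. Of 6 body wall muscle markers, 0 were called in these comparisons by edgeR's quasi-likelihood test (at most 1 at an unadjusted p under 0.05). Besides the shares given for atfs-1(null), 16.3% of all genes tested were called in the double mutant against wildtype and 18.5% against nhr-180(cmh19). DESeq2 called 1 muscle marker in atfs-1(null) against wildtype. The muscle median was lowest in atfs-1(null) replicate 1, at -1.36 log2 relative to the wildtype mean, and in double mutant replicate 2, at -0.996. The part of developmental timing or of these tissues in the vitellogenin result was not tested.

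Oocyte genes moved another way when atfs-1(null) and the double mutant were each compared with wildtype. All 10 oocyte markers, rme-2 among them, were higher in the double mutant than in wildtype, against 10.1% of all genes tested, in edgeR's quasi-likelihood test and every other setting, with a median log2 fold change of 2.11. Their summed level was 348 to 989 CPM in atfs-1(null) libraries, 1052 to 1331 CPM in double mutant libraries, 270.3 to 329 CPM in nhr-180(cmh19) libraries and 199 to 379 CPM in wildtype libraries. Vitellogenin levels in the double mutant, not called against wildtype, thus stood beside raised oocyte transcripts, and the low vitellogenin levels of atfs-1(null) stood beside oocyte transcripts that overlapped or exceeded those of wildtype libraries. In atfs-1(null) against wildtype, only mex-3, an RNA-binding protein gene of oocytes and embryos, was called (log2 fold change 1.14, adjusted p = 0.00873), where 7.54% of all genes tested were called higher. All 10 were higher at an unadjusted p under 0.05. Without atfs-1(null) replicate 2 all 10 were called, and DESeq2 called 8. Between the double mutant and atfs-1(null) both lists had positive medians, 0.99 log2 for the oocyte markers and 4.43 for the vitellogenin genes. In that comparison 0 oocyte markers were called by edgeR or DESeq2, where 0.312% of all genes tested were called higher by edgeR. Of the 10 oocyte markers, 9 were higher at an unadjusted p under 0.05, and 9 were called without atfs-1(null) replicate 1. Of the 10 genes on the sperm list, 0 were called in any of these comparisons by edgeR's quasi-likelihood test. Of all genes tested, 6.77% were called lower and 7.54% higher in atfs-1(null) against wildtype. In the double mutant 16.3% were called against wildtype and 0.443% against atfs-1(null). At an unadjusted p under 0.05, 3 genes of the sperm list were higher and 1 lower in atfs-1(null) against wildtype. On that list gss-1 had a lower mean in atfs-1(null), 58.2 ± 4.80 CPM, than in wildtype, 72.7 ± 6.75 CPM. In the double mutant against wildtype 4 were higher at that level, and 0 to 4 were called higher over the settings, 2 of them by DESeq2. Genes of male-specific neurons summed to at most 3.46 CPM in any library.

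**Figure D4:**
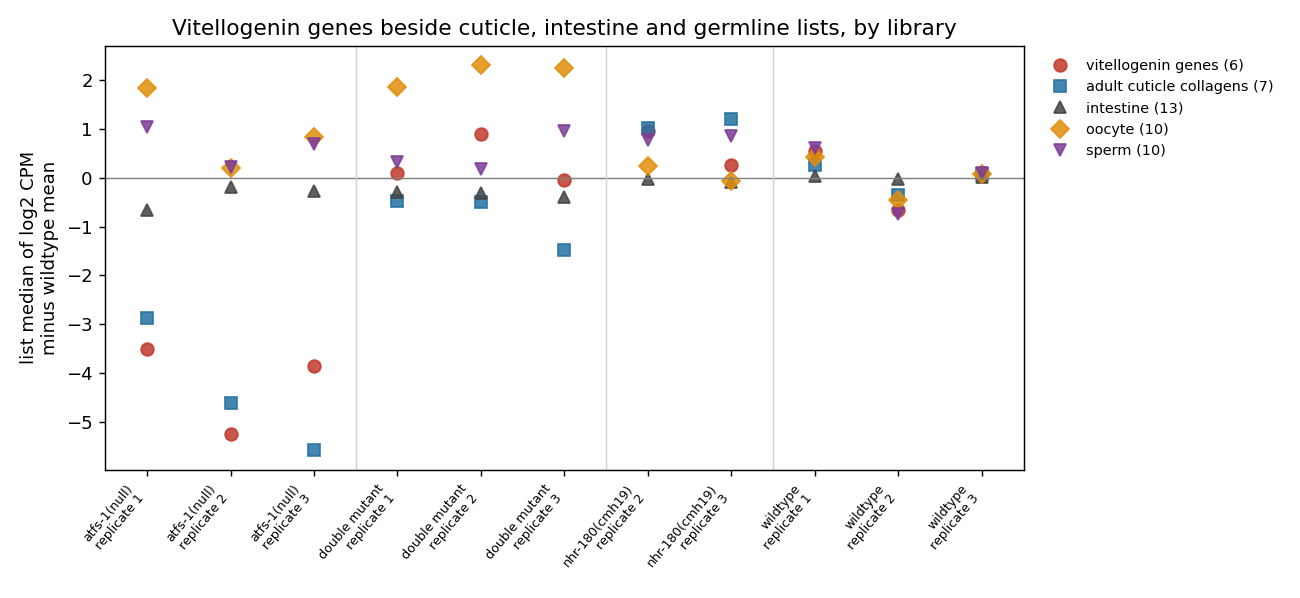
Median over each gene list of log2 CPM minus the wildtype mean, for the vitellogenin genes, adult cuticle collagens, intestine, oocyte and sperm lists in each of the 11 libraries. Vitellogenin and collagen medians fall to between -5.59 and -2.87 in atfs-1(null) libraries while the intestine median stays between -0.66 and 0.04 in all libraries, and in double mutant libraries the oocyte median lies between 1.87 and 2.31.

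The genes whose levels over the 11 libraries were most like those of the vitellogenin genes were taken by Pearson correlation with the mean of the 6 members' log2 CPM. Among 10841 other genes with a mean of at least 5 CPM, the 10 most alike had r between 0.956 and 0.980, and between 0.623 and 0.928 once genotype means were taken out. They were ule-3, ZC373.2, Y62H9A.5, Y37D8A.19, ZK813.7, ule-5, col-179, D1054.10, D1086.6 and D1086.7. The ule genes take their name from expression in the uterine lumen, and col-179 encodes a collagen; no role is given here for the others. The points share libraries and depth, so the correlation is a description.

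The closest, ule-3 (V:10793798-10794924), had 5.83, 3.10 and 5.07 CPM in atfs-1(null) libraries, 33.5, 66.7 and 42.1 CPM in double mutant libraries, 61.7 and 59.1 CPM in nhr-180(cmh19) libraries, and 44.6, 18.9 and 33.0 CPM in wildtype libraries. The gene was chosen by correlation over these same libraries, so a shared pattern is no separate result. It was lowest in the 3 atfs-1(null) libraries, as were all the vitellogenin genes. Wildtype replicate 2 was its lowest among the rest, as for vit-1, vit-2, vit-5 and vit-6. For vit-3 and vit-4 double mutant libraries lay lower still. The nhr-180(cmh19) libraries were close together for ule-3, whereas the summed vitellogenin level was 10960.2 CPM in replicate 2 and 6381 CPM in replicate 3. The collagen gene col-179 had 8.52, 1.06 and 1.43 CPM in atfs-1(null) libraries, 38.8, 68.6 and 24.7 CPM in double mutant libraries, 84.1 and 93.0 CPM in nhr-180(cmh19) libraries, and 86.6, 53.6 and 69.1 CPM in wildtype libraries. The 10 genes formed 3 pairs on their chromosomes: ule-3 with D1054.10, 922 bp apart, Y62H9A.5 with ule-5, 226 bp apart, and D1086.6 with D1086.7, 2503 bp apart with 1 gene between.

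**Figure D5:**
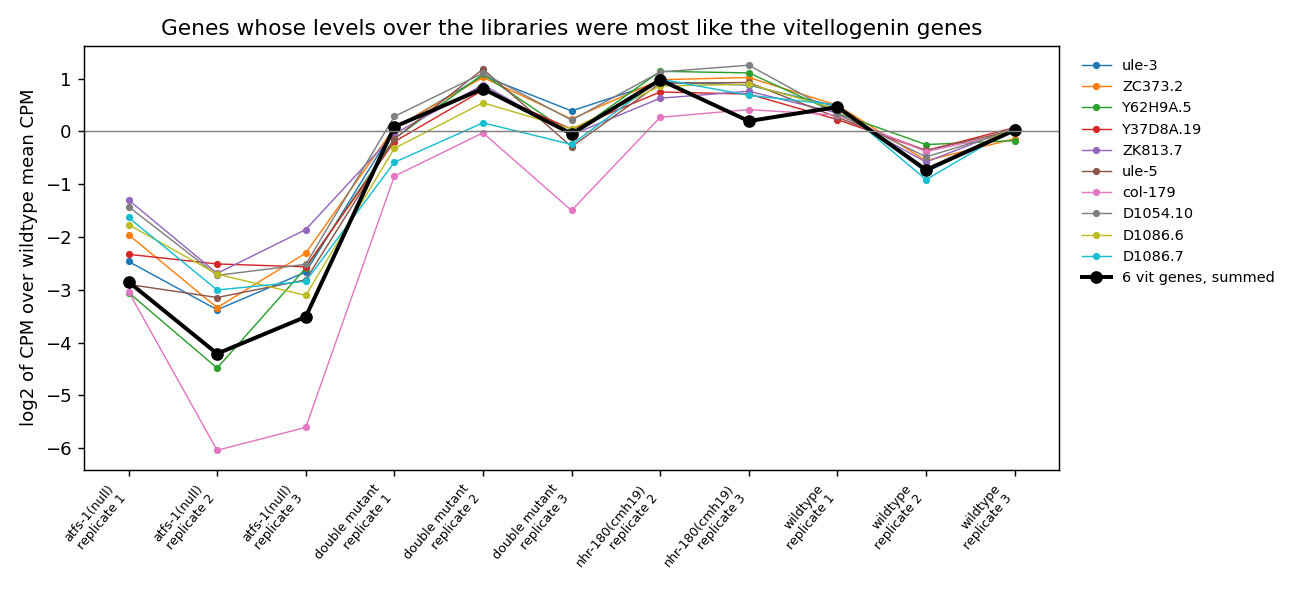
Level of the 10 genes most like the vitellogenin genes, and of the summed vitellogenin genes (black), in each library, as log2 of CPM over the wildtype mean CPM; lines only join the points of a gene. All lines are lowest in the atfs-1(null) libraries, and within wildtype they are lowest in replicate 2. The 10 genes were chosen by correlation over these libraries.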

How the data were processed

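RNA was extracted with Trizol from whole L4 worms and sequenced as strand-specific paired-end libraries, per the labels' protocols. The deposited count table holds the authors' raw counts per gene, made per the submitters' processing notes with featureCounts 1.5.2. The sources used here give no aligner, annotation release, strand setting or handling of reads that match several copies. The deposited TPM table, length-normalized by the authors, holds 18798 genes.

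Counts were tested with edgeR 4.0.16 in R 4.3.3. Its filterByExpr filter left 16013 genes, TMM factors scaled the libraries, and a quasi-likelihood model fitted 1 mean to each genotype over all 11 libraries. Genes were called at a two-sided Benjamini-Hochberg adjusted p under 0.05 over all genes tested, and every adjusted p of a gene is from this test unless another is named. CPM are counts over TMM-scaled library sizes, and errors are SDs unless given as SE. Summed levels and shares were compared with exact permutation tests. The script was tested on simulated data with known fold changes.

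Alternatives were DESeq2 size factors, no filter, DESeq2 1.42.0, the compared groups alone, the replicate number as a block, limma 3.58.1 on log2 of the deposited TPM plus a pseudocount of 1 or 0.1, vit-3 to vit-5 summed, and libraries left out. The members, the gene lists, the tests and the libraries named as standing apart were chosen with earlier results of these data known. All members were named; from a list, called members with the smallest p and a set of regulators and markers could be named, and the 10 most alike genes came from a minimum of 5 CPM.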

Additional observations from a re-analysis of the deposited data

Results flagged for a closer look

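The change that went with the nhr-180 mutation differed between the atfs-1 backgrounds in a test of that difference for 3 vitellogenin genes. The log2 change in worms lacking atfs-1 exceeded that in worms carrying atfs-1 by 6.03 for vit-4, by 4.49 for vit-5 and by 3.17 for vit-6, with adjusted p of 0.00739, 0.0204 and 0.0454 by edgeR's quasi-likelihood test. In nhr-180(cmh19) against wildtype the log2 fold changes of these genes were 0.17, 0.52 and 0.70, none of them called. The nhr-180(cmh19) group has 2 libraries, and without either of them none of the 3 was called.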

How the results depend on the processing

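For atfs-1(null) against wildtype, all 6 genes were called in each alternative (4 of 4 features with vit-3 to vit-5 summed). For the double mutant relative to atfs-1(null), 5 or 6 were called. Against nhr-180(cmh19), where none was called in the double mutant, 1 (vit-3) was called with the compared groups alone and 1 with both libraries that stood apart left out. Of the interaction, with 3 called, 6 were called with no filter, 6 by DESeq2's Wald test, 6 with both libraries left out, 5 with limma on TPM and a pseudocount of 1, with or without a minimum, and 1 with the replicate number as a block; leaving out 1 library gave 0 to 6. The cause was not tested.

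The labels give no pairing by replicate number, and the data do not settle whether same-numbered libraries shared a batch. Same-numbered libraries of different genotypes had correlations of their deviations from -0.41 to 0.613 over 15 pairs, 5 of them over 0.1. The highest was that of atfs-1(null) replicate 3 with double mutant replicate 3. Of the 11 libraries, 5 correlated best with their own number. The block changed no other count of members called, and on the summed level it gave an exact permutation p of 0.148 with the same difference of -1.81. Of 738 values of single genes under the alternatives, 19 turned sign, none of them called. Signs turned for vit-2 (0.0325 with a pseudocount of 1, 0.0326 with 0.1) and vit-5 (0.0019 with a pseudocount of 1, 0.0020 with 0.1) in the double mutant against nhr-180(cmh19) on TPM, and for vit-4 in nhr-180(cmh19) against wildtype with both libraries left out (-0.0697). Leaving out 1 library gave ranges that crossed 0 in the double mutant against nhr-180(cmh19) for vit-1 (-0.50 to 0.22), vit-2 (-0.48 to 0.35), vit-5 (-0.53 to 0.32) and vit-6 (-0.76 to 0.0286), in the double mutant against wildtype for vit-5 (-0.0111 to 0.66) and vit-6 (-0.0549 to 0.60), and in nhr-180(cmh19) against wildtype for vit-4 (-0.21 to 0.48).

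The summed-level difference between libraries lacking and carrying atfs-1 ranged from -2.29 to -1.29 with 1 library left out. The exact permutation p ranged from 0.0556 to 0.254, in a test that pools atfs-1(null) with the double mutant. The number of genes called over the whole table moved by single libraries too, with extremes of 1132 (without wildtype replicate 3) and 2408 (without atfs-1(null) replicate 1) for atfs-1(null) against wildtype, 1121 (without wildtype replicate 3) and 4069 (without atfs-1(null) replicate 1) for the double mutant against wildtype, 437 (without nhr-180(cmh19) replicate 3) and 4332 (without atfs-1(null) replicate 1) for the double mutant against nhr-180(cmh19), 75 (without nhr-180(cmh19) replicate 2) and 1042 (without atfs-1(null) replicate 1) for nhr-180(cmh19) against wildtype, and 65 (without nhr-180(cmh19) replicate 2) and 456 (without atfs-1(null) replicate 1) for the interaction. Other settings moved these whole-table counts by over 1.5 times as well. With the compared groups alone, 1161 rather than 2291 genes were called in atfs-1(null) against wildtype, and 17 rather than 71 in the double mutant relative to atfs-1(null), where no filter gave 150, DESeq2 241, TPM with no minimum 113 and leaving out both libraries 982. In nhr-180(cmh19) against wildtype the count was 358, but 907 by DESeq2, 695 with the replicate block and 555 without both libraries. It was 4643 without both libraries, against 2961, in the double mutant against nhr-180(cmh19), and for the interaction 488 by DESeq2 and 482 without both libraries, against 182. Depth limits vit-3 and vit-4 in atfs-1(null), where the lowest library held 16 and 10 counts.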
